A study of Mus musculus with 6 samples.

Results

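The genes described here are 40 genes of the cell cycle and of proliferation, chosen by name and not by their values: cyclins, cyclin-dependent kinases (CDKs), CDK inhibitors, replication factors and mitotic regulators. Of these, 39 had at least 1 probe set with a single gene symbol, of 18193 such genes on the array, and Ccnb1, which encodes cyclin B1, had none in the annotation used here. The 39 genes had 93 such probe sets, and each gene is given by the one with the highest mean log2 signal over the 6 arrays. RNA came from isolated pancreatic islets, the endocrine clusters of the pancreas, of 3 Vhlh knockout (VhlhKO) and 3 control samples of the mouse. In the knockouts, Cre recombinase under the RIP2 (rat insulin) promoter was used on floxed Vhlh alleles, so the deletion is meant for beta cells and the other cells of the islet keep the gene. The sources used here do not say if controls carried the floxed alleles or the Cre transgene. In each genotype, number 01 was of 26 weeks and male, number 02 of 20 weeks and female, and number 03 of 18 weeks and male. The design text gives 3 islet batches per genotype and not the number of mice behind each, so the p-values reflect batch-to-batch spread. Without a block for the number, that spread includes the differences of age and sex between the batches.

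Cells that divide pass from G1 through DNA synthesis (S phase) and G2 into mitosis. D-type cyclins with CDK4 or CDK6, and then cyclin E with CDK2, release E2F transcription factors from the retinoblastoma protein, and E2F turns on replication genes. Mitotic genes follow later under FoxM1 and B-Myb, and CDK inhibitors hold cells back. Adult beta cells divide rarely, and cyclin D2 is the D-type cyclin best known for their growth in mice. The product of Vhlh (symbol Vhl) is the von Hippel-Lindau protein, which targets hypoxia-inducible factors for degradation. The comparison of the genotypes asks how islet transcripts differ when beta cells lack it.

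The arrays carried the same scaling, and their median signals lay between 102.1 and 123.0. Of 11693 genes bright enough to test, 2 passed an adjusted p of 0.05 in limma, Ak4 and Prelid2, both higher in the knockout, and the median log2 difference over all genes was 0.0051. Vhl had signals of 343.6, 358.3 and 467.4 in knockouts, against 456.6, 638.7 and 838.8 in controls. That is 61.7% of the control level, with an adjusted limma p of 0.9999 and a two-sided exact permutation p of 0.2, where the smallest possible is 0.1. A dimmer Vhl probe set stood at 70.6% of control with an exact permutation p of 0.6, and where either lies relative to the deleted part was not analysed here, which limits Vhl as a check of the labels. By pairs, the brighter Vhl probe set was lower in the knockout in 3 of 3, by log2 differences of -0.41, -0.83 and -0.84. Its 95% interval was -1.41 to 0.02 without the replicate block and -1.27 to -0.12 with it, where the adjusted limma p was 0.9237. The islet label is borne by Ins2, Iapp, Gcg and Sst, which were above the array medians on all 6 arrays. The exocrine (acinar) genes Cpa1, Cela1, Cela2a, Cel and Ctrb1 were above them on all 6 arrays as well, so this is no measure of islet purity.

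No tested cell cycle gene showed a difference between the genotypes larger than the spread between arrays by limma's test. In limma's fit over all genes, 0 of the 28 members that could be tested passed the adjusted threshold, where 0.0171% of all genes did, and 0 passed an unadjusted p of 0.05, where 2.04% of all genes passed as higher and 0.53% as lower in the knockout. Each of the 28 had an adjusted p of 0.9999, and the lowest unadjusted p was 0.122, for Mcm5. With the pair number as a replicate block, 0 of 28 passed the adjusted threshold again. At an unadjusted p of 0.05 in that fit 3 members were higher in the knockout, Mcm5, Cdkn1a and Mki67, where 3.69% of all genes were, and 0 were lower, where 1.31% were. Their adjusted p-values with the block were 0.903, 0.912 and 0.927. Of the 28 members 3 differed by at least 1 log2 unit, Mcm5, Top2a and Cdk1, where 3.63% of all genes did, and with Mki67 4 stood above 0.9, where 3.41% did. Mcm5, Top2a and Mki67 were bright enough to test through their knockout arrays alone. In all, 18 had a positive log2 difference, against 50.8% of all genes, and the median difference was 0.17. The groups did not separate for any tested member: knockout and control signals overlapped in 28 of 28, while 4.02% of all genes had every knockout array above every control and 2.69% had every one below.

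These values leave room for changes of moderate size. Without the replicate block all 28 intervals at 95% held 0, but 18 of them reached a 2-fold higher and 6 a 2-fold lower level in the knockout. The narrowest of these belonged to Mcm7, at 0.57 log2 units on either side, and the widest to Foxm1, at 1.94. With the block the intervals of Mcm5, Cdkn1a and Mki67 lay above 0. In whole islets, fewer cells of a type and less RNA per cell cannot be told apart, so a low signal of a mitotic gene is a statement about the sample's RNA.

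**Figure D1:**
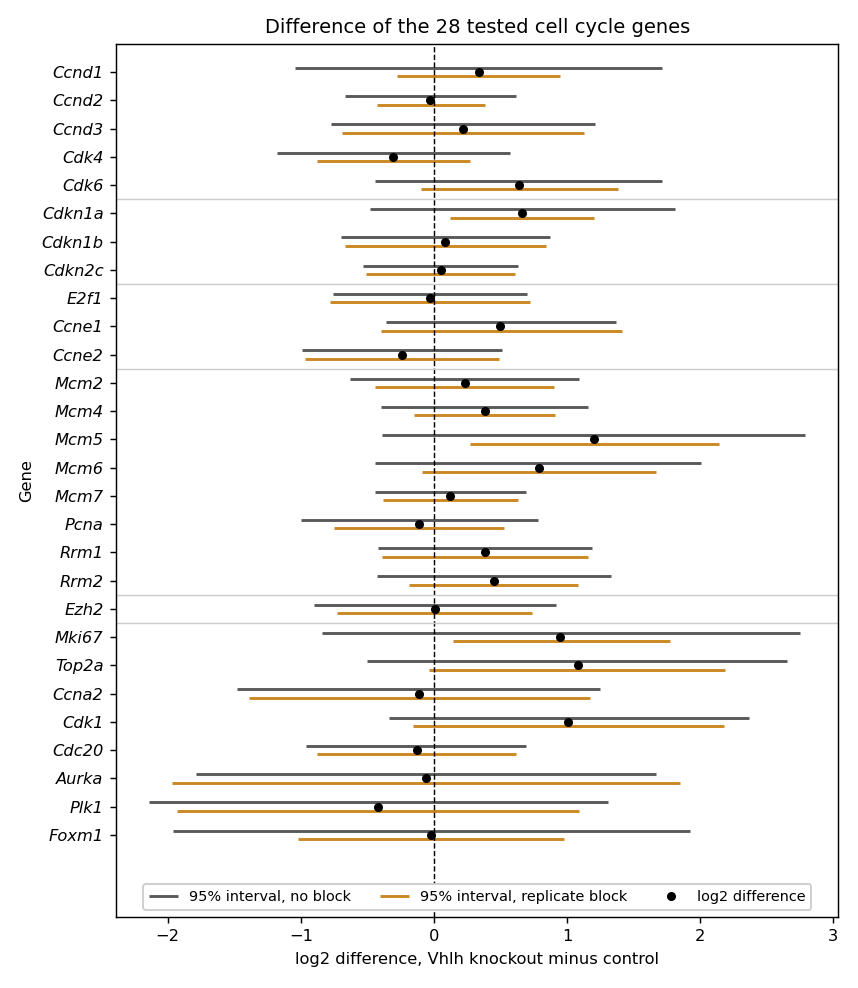
Log2 difference of the 28 tested cell cycle genes (x axis, knockout minus control; 3 arrays each), ordered by role from D cyclins at the top to mitotic genes at the bottom. Points are the differences, grey lines the 95% intervals without a block and ochre lines those with the replicate block. All 28 grey intervals cross 0, while the ochre ones of Mcm5, Cdkn1a and Mki67 lie above it.

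Some of these transcripts were dim. Signals of 20 members were above the array median on all 6 arrays, and those of 7 were below it on all 6, namely Cdkn2a, Cdk2, Tyms, Uhrf1, Aurkb, Birc5 and Bub1. Another 4 were above the median on 1 array, Cdkn1c on knockout 01, Mcm3 and Ccnb2 on knockout 03 and Bub1b on knockout 02. These 11 genes entered no test. By the same filter 28 of the 39 measured members were tested, against 11693 of all 18193 genes, so dim genes were no more common among the members. The remaining 8 were above it on 3 to 5 arrays and were tested: Cdk6, Mcm5, Mki67, Top2a, Ccna2, Cdk1, Aurka and Plk1. Each tested member had at least 1 array above the median in both genotypes. Mcm5 and Top2a had 3 knockout arrays and 1 control array above it, and Mki67 and Cdk6 had 3 and 2. For these genes the knockout arrays alone met the filter and the control arrays alone did not. Of 13 measured genes of G2 and mitosis, Cdc20 and Foxm1 were above the median on every array, against 7 of 10 replication genes. Detection calls were not used here, so a signal below the median is called dim and not absent.

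**Figure D2:**
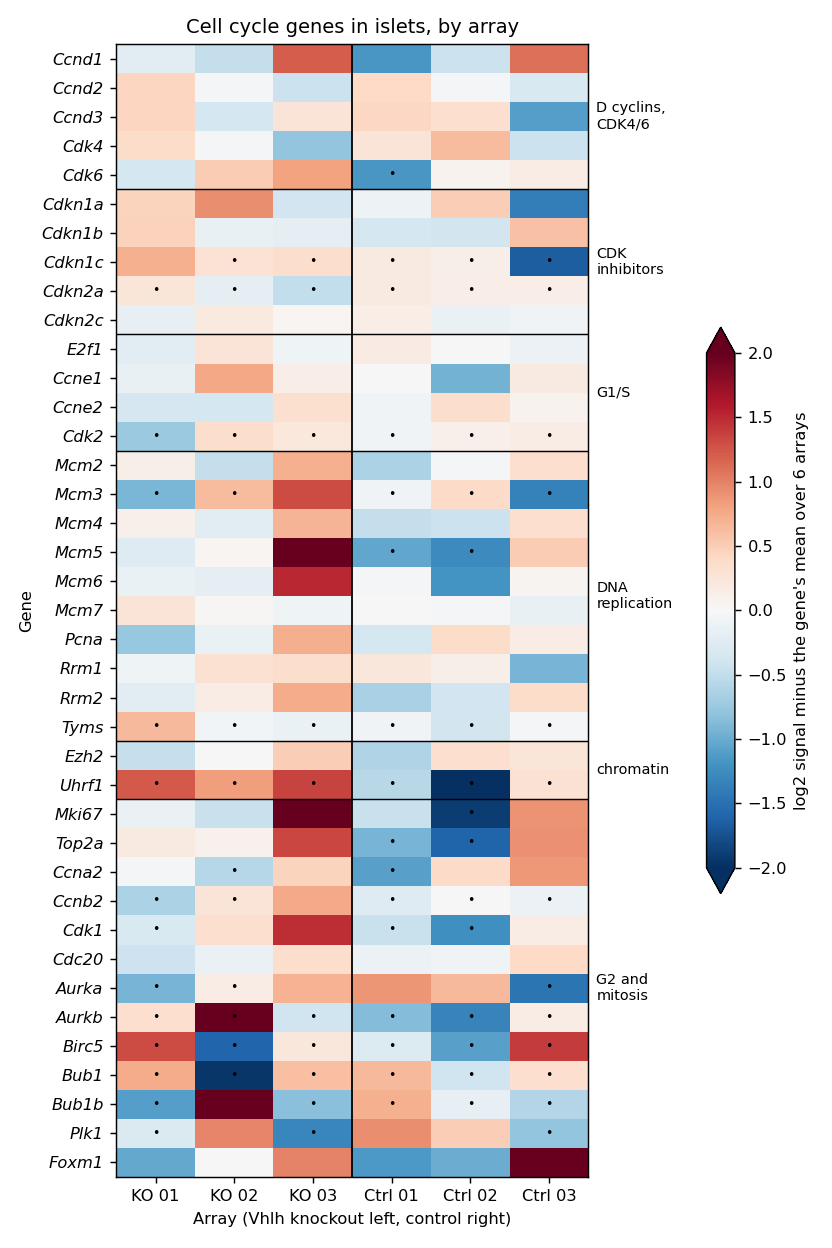
Log2 signal of the 39 measured genes (rows, by role) on the 3 knockout arrays, left, and the 3 control arrays, right, as the deviation from each gene's mean over the 6 arrays (colour). A dot marks a signal at or below that array's median. Knockout 03 is red for most replication and mitotic genes above the median. Among mitotic rows, dots fill those of Aurkb, Birc5 and Bub1 and most of those of Ccnb2 and Bub1b, while Cdc20 and Foxm1 have none.

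Among the D-type cyclins, which start G1, Ccnd2 showed no difference beyond its error. Its signals were 28320, 20650 and 15609 in knockouts, against 27804, 20455 and 16995 in controls. The log2 difference was -0.03 with a 95% interval from -0.67 to 0.62. On this probe set the interval leaves out a 2-fold change in either direction, and the signals followed the array number more than the genotype. Its 7 probe sets were all above the median on every array, and their differences ran from -0.28 to -0.01, with an SE of up to 0.46. Not all followed the number: 1 had signals of 13790, 4625 and 4359 in knockouts, against 7813, 4689 and 8448 in controls. Ccnd1, cyclin D1, had signals of 1893, 1588 and 5105 in knockouts, against 982.4, 1641 and 4720 in controls. Both arrays numbered 03 stood above the other 4, so the log2 difference of 0.34 has an interval from -1.04 to 1.71. It was -0.18 without knockout 03 and -0.16 without control 01, and another probe set of the gene differed by -0.15. Ccnd3, cyclin D3, had signals of 690.9, 403.4 and 616.6 in knockouts, against 688.4, 653.3 and 241.0 in controls. The low value of control 03 sets its difference of 0.22 (SE 0.44), which was -0.27 without that array.

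The kinases that D cyclins activate pointed in different directions. Cdk4 had signals of 1822, 1379 and 820.4 in knockouts, against 1691, 2204 and 1045 in controls. Its log2 difference was -0.31 (SE 0.39), its other probe sets stood at -0.19 and -0.39, and the groups overlapped widely. Cdk6 had signals of 173.3, 313.4 and 386.9 in knockouts, against 99.0, 231.1 and 244.3 in controls. It was higher in the knockout in 3 of 3 same-numbered pairs, with a log2 difference of 0.64 (SE 0.48, adjusted limma p 0.9999), but a dimmer probe set gave -0.32 and without control 01 the difference was 0.22.

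Among the tested CDK inhibitors the largest difference was that of Cdkn1a, which encodes p21, an inhibitor induced by p53 and by stress. Its signals were 2001, 2805 and 1124 in knockouts, against 1370, 2064 and 562.3 in controls. Each knockout array was above the control of its number, by 0.55, 0.44 and 1.00 log2 units, while across numbers the groups overlapped. The difference was 0.66 (SE 0.51, interval -0.48 to 1.81), a 1.58-fold higher mean level, and the second probe set stood at 0.59. With the replicate block the interval was 0.12 to 1.20 and the adjusted p 0.912. Control 03 weighs on it, since the difference was 0.14 without that array and 1.07 without control 02. On its brighter probe set Cdkn1a was lowest at number 03 in both genotypes. The second probe set was highest there in knockouts, at 534.0, and lowest there in controls, at 204.6.

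The other inhibitors showed small or unreadable differences. Cdkn1b, which encodes p27, an inhibitor of cyclin E and CDK2, had signals of 1275, 833.3 and 815.9 in knockouts, against 726.6, 718.5 and 1394 in controls. Its difference was 0.08 (SE 0.35) and turned to -0.50 in its dimmer probe set. Cdkn2c, which encodes p18, an inhibitor of CDK4 and CDK6, had signals of 904.1, 1167 and 1040 in knockouts, against 1110, 926.2 and 962.8 in controls. This was the narrow case among inhibitors, with a difference of 0.05 and an interval from -0.53 to 0.63. Cdkn1c, which encodes p57, was dim at 130.3, 98.2 and 101.5 in knockouts, against 91.0, 86.7 and 25.5 in controls. Its groups did not overlap, yet 5 of its 6 signals lay at or below the array medians. Cdkn2a, whose product p16 accumulates in ageing islets, had signals of 60.8, 44.6 and 36.3 in knockouts, against 58.0, 56.2 and 55.9 in controls, all at or below the array medians.

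Genes of the G1/S transition did not separate the genotypes. E2f1, a transcription factor that turns on S phase genes, had signals of 199.9, 274.5 and 216.7 in knockouts, against 259.8, 230.6 and 211.7 in controls, a difference of -0.03 (SE 0.32). Ccne1, cyclin E1, had signals of 574.5, 1087 and 693.5 in knockouts, against 637.5, 331.2 and 721.4 in controls. Knockout 02 was its highest array and control 02 its lowest, and that pair made the difference of 0.50 (SE 0.38), which was 0.16 without control 02 and 0.24 without knockout 02. Ccne2, cyclin E2, had signals of 222.0, 219.5 and 347.5 in knockouts, against 265.5, 358.2 and 294.4 in controls, and differed by -0.24 (SE 0.33). Cdk2, the partner of cyclin E, was dim on every array, from 43.3 to 92.9 in knockouts and from 68.7 to 80.5 in controls.

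Replication genes had the highest median of the roles. Of 10 measured genes 8 were tested, 7 of them had a positive difference, and the median was 0.38 against 0.0051 over all genes. Mcm2 to Mcm7 encode the subunits of the helicase that opens DNA at origins. Mcm5 had signals of 128.2, 157.6 and 623.7 in knockouts, against 74.6, 63.7 and 218.0 in controls. It was higher in the knockout in each of the 3 pairs, and knockout 03 stood far above the other arrays. The difference was 1.20 (SE 0.70, interval -0.39 to 2.79) and 0.49 without knockout 03, and its probe set ends in _x_at, a type that may also detect related transcripts. With the block the interval was 0.27 to 2.14, with an adjusted p of 0.903. Controls 01 and 02 of Mcm5 lay below their array medians, and with 50 added to each signal the difference was 0.90. Mcm6 had signals of 230.0, 219.6 and 721.1 in knockouts, against 245.0, 110.7 and 261.8 in controls, and differed by 0.79 (SE 0.54), or by 0.23 without knockout 03.

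The other helicase subunits differed less. Mcm2 had signals of 888.7, 585.5 and 1335 in knockouts, against 527.1, 791.7 and 1026 in controls, a difference of 0.23 (SE 0.38). Mcm4 had signals of 933.4, 748.9 and 1393 in knockouts, against 622.6, 644.3 and 1096 in controls. It was higher in the knockout in 3 of 3 pairs, by 0.38 on average (SE 0.35), and its probe set that is not of the _x_at kind differed by 0.18. Leaving out single arrays moved it between 0.14, without knockout 03, and 0.65, without control 03. Mcm7, the most precisely measured member, had signals of 2034, 1714 and 1591 in knockouts, against 1681, 1657 and 1537 in controls. It too was higher in 3 of 3 pairs, but by 0.12 with an interval from -0.44 to 0.69, and its 3 other probe sets ran from -0.02 to 0.11. Mcm3 was dim, from 39.8 to 186.2 in knockouts and from 29.4 to 98.3 in controls.

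Genes that feed and clamp the replication fork gave a mixed picture. Pcna, the sliding clamp, had signals of 1239, 1903 and 3443 in knockouts, against 1634, 2680 and 2315 in controls, and differed by -0.11 (SE 0.39). It was the 1 tested replication gene with a negative difference, although knockout 03 was again its highest array. Rrm1 and Rrm2, the subunits of ribonucleotide reductase, which makes deoxyribonucleotides, differed by 0.38 (SE 0.36) and 0.45 (SE 0.39). Rrm1 had signals of 609.4, 793.0 and 821.6 in knockouts, against 753.7, 700.0 and 339.5 in controls. Rrm2 had signals of 258.5, 331.4 and 499.8 in knockouts, against 190.2, 230.9 and 385.4 in controls. For Rrm2 each knockout array was above its own control, while for Rrm1 the low control 03 set the difference, which was -0.06 without both arrays numbered 03. The difference of Rrm2 was 0.19 without knockout 03, 0.23 without control 01 and 0.74 without control 03. Tyms, thymidylate synthase, was dim on every array, from 45.4 to 78.6 in knockouts and from 38.9 to 48.7 in controls.

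Of the chromatin regulators of dividing cells, Ezh2, the methyltransferase of Polycomb complex PRC2, had signals of 171.7, 235.3 and 333.2 in knockouts, against 157.1, 298.5 and 282.0 in controls. Its difference was 0.01 with an interval from -0.90 to 0.92. Uhrf1, which helps to keep DNA methylation through replication, had signals of 87.1, 66.9 and 94.7 in knockouts, against 25.3, 4.2 and 46.0 in controls. The groups did not overlap, but all 6 signals were below the array medians and the gene was not tested. With no filter on dim probe sets its unadjusted limma p was 0.0297 and its adjusted p 1.0, and its other probe set, at 9.2 to 13.0 in knockouts and 11.2 to 27.3 in controls, did not show the gap.

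Among genes of G2 and mitosis, 3 of 8 tested members had a positive difference, Top2a, Cdk1 and Mki67, and these 3 were the largest differences of the 8. Mki67 encodes the Ki-67 protein, the standard mark of cycling cells. Its signals were 213.5, 172.2 and 933.0 in knockouts, against 171.7, 62.9 and 436.6 in controls. Top2a encodes the topoisomerase that untangles sister DNA before mitosis. Its signals were 142.5, 134.1 and 318.4 in knockouts, against 65.8, 41.5 and 237.1 in controls. Cdk1 encodes the kinase that drives entry into mitosis, with signals of 98.8, 154.3 and 340.2 in knockouts, against 89.4, 52.3 and 134.8 in controls. In each of these genes all 3 knockout arrays were above the control of the same number, and number 03 was the highest in both genotypes.

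The sizes of these differences were similar and their errors wide. The log2 difference was 1.08 for Top2a (SE 0.70, interval -0.50 to 2.65), 1.01 for Cdk1 (SE 0.60, interval -0.34 to 2.37) and 0.95 for Mki67 (SE 0.80, interval -0.84 to 2.75). With the replicate block, the interval of Mki67 was 0.14 to 1.77 (adjusted p 0.927), that of Top2a -0.04 to 2.19 (adjusted p 0.9945) and that of Cdk1 -0.16 to 2.18 (adjusted p 0.9951). Single arrays move these values: without knockout 03, Mki67 stood at 0.19, Cdk1 at 0.53 and Top2a at 0.68, and without control 02 Mki67 stood at 0.25, Top2a at 0.55 and Cdk1 at 0.66. Without both arrays numbered 03 the differences were 0.88, 1.4 and 0.85 for Mki67, Top2a and Cdk1. Part of their size rests on dim signals. Controls 01 and 02 of Top2a and Cdk1, knockout 01 of Cdk1 and control 02 of Mki67 lay below their array medians. With 50 added to each signal, the differences were 0.70 for Top2a, 0.72 for Cdk1 and 0.75 for Mki67. A second Top2a probe set, as bright as the median, differed by 0.09 only.

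**Figure D3:**
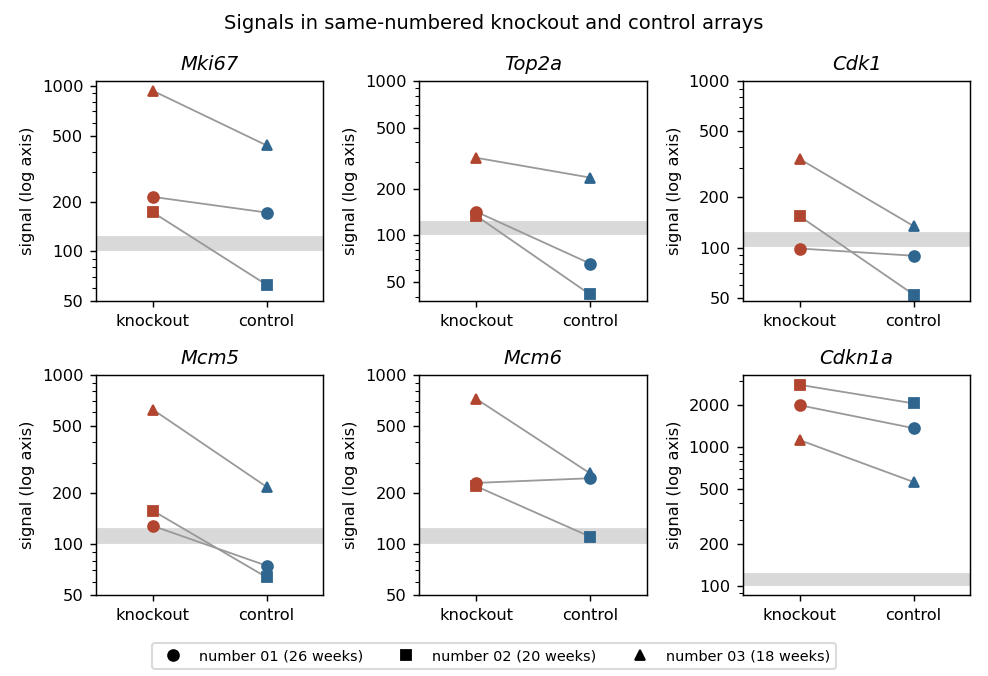
Signals of Mki67, Top2a, Cdk1, Mcm5, Mcm6 and Cdkn1a (y axis, MAS5 signal, log scale) in knockout, left, and control, right, with a line for each pair of arrays of the same number and age. The grey band spans the 6 array medians, from 102.1 to 123.0. Lines slope down from knockout to control in 3 of 3 pairs except for number 01 of Mcm6, and triangles (number 03) lie on top except for Cdkn1a, where they lie lowest.

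The remaining 5 tested mitotic genes had negative differences, all within their errors. Foxm1, a transcription factor for mitotic genes, had signals of 140.7, 286.5 and 569.3 in knockouts, against 129.1, 144.7 and 1290 in controls. Its difference was -0.02 (SE 0.86) because control 03 was by far its highest array, and it was 1.06 without that array. Ccna2, cyclin A2, had signals of 115.1, 80.4 and 161.0 in knockouts, against 56.1, 155.0 and 216.5 in controls, and differed by -0.11 (SE 0.61). Cdc20, an activator of the anaphase-promoting complex, had signals of 158.9, 194.1 and 269.5 in knockouts, against 195.2, 201.9 and 278.8 in controls. It was the 1 tested member that was lower in the knockout in 3 of 3 pairs, where 10.9% of all genes were. Its difference was -0.13 (SE 0.37), while another of its probe sets differed by 0.67. For Aurka, a spindle kinase, signals lay between 47.5 and 145.3 in knockouts and between 32.9 and 166.5 in controls. Plk1, the Polo-like kinase, had signals of 67.3, 161.7 and 33.3 in knockouts, against 156.5, 115.4 and 47.7 in controls. Their differences of -0.06 (SE 0.77) and -0.42 (SE 0.76) rest on signals around the array medians.

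The mitotic genes that could not be tested had no shared pattern. Ccnb2, cyclin B2, ran from 43.0 to 112.4 in knockouts and from 55.9 to 66.5 in controls. Aurkb, a kinase of the chromosomal passenger complex, ran from 18.0 to 102.5 in knockouts and from 9.4 to 26.1 in controls. Birc5, which encodes survivin of the same complex, ran from 11.3 to 84.1 in knockouts and from 16.0 to 89.4 in controls. The spindle checkpoint genes Bub1 and Bub1b were as dim. Bub1 lay between 6.7 and 43.3 in knockouts and between 19.6 and 40.3 in controls, and Bub1b between 15.6 and 132.3 in knockouts and between 22.1 and 54.6 in controls.

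Mcm5, Top2a, Cdk1 and Mki67 were the 4 tested members of largest difference, chosen after their values were seen, and their promoter windows are shown because each was higher in the knockout in 3 of 3 pairs. Each is the RefSeq window (build GRCm38.p6) from 250 bases before to 50 after the start, read 5′ to 3′ along the gene's strand. Mki67 is at chr7:135716330-135716629 (minus strand), Top2a at chr11:99024140-99024439 (minus), Cdk1 at chr10:69352863-69353162 (minus) and Mcm5 at chr8:75109259-75109558 (plus). Capitals mark CCAAT, the core of NF-Y sites, TTTGAA, the core of the cell cycle homology region (CHR) of mitotic promoters, and the E2F spellings TTTCCCGC, TTTGGCGC, TTTCGCGC and TTTGCCGC, each on either strand.
Mki67: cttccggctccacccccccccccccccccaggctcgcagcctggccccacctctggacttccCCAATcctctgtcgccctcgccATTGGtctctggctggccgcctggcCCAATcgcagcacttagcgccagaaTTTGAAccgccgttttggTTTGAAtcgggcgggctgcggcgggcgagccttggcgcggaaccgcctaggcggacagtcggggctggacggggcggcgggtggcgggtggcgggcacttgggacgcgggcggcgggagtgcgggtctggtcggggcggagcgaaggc
Top2a: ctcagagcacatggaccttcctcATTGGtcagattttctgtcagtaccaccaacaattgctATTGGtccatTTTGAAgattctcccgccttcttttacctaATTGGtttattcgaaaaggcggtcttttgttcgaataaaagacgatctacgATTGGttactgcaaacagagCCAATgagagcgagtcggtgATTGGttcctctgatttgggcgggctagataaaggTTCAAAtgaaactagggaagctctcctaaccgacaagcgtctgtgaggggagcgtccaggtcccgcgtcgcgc
Cdk1: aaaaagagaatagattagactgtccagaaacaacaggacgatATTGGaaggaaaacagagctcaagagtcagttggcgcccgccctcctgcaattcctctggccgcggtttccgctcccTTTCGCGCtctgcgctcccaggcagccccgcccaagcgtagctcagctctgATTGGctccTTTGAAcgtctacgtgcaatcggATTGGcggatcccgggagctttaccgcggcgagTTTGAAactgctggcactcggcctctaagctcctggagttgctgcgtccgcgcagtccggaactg
Mcm5: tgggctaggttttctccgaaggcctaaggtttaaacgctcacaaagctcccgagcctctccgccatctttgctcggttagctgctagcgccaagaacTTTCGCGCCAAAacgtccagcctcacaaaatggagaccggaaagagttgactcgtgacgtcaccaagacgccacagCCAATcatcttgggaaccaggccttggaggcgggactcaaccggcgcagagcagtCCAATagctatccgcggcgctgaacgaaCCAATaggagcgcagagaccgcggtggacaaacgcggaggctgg
The windows of Mki67, Top2a and Cdk1 each held 2 CHR cores and at least 3 CCAAT boxes, Top2a having 6. That of Mcm5 held 3 CCAAT boxes, 0 CHR cores and 2 E2F spellings that overlap each other, and Cdk1 held 1 E2F spelling.

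RefSeq windows were found for 32 of the 40 genes, 38 windows in all. CCAAT was in 27 of 38, against 37.4% of all 32851 windows, and TTTGAA in 9 of 38, against 17.9%. An E2F spelling was in 9 of 38, against 2.26%. By role, TTTGAA was in 8 of 11 windows of G2 and mitosis and in 1 of 10 of replication genes, and an E2F spelling in 1 of 11 of G2 and mitosis and 4 of 10 of replication. ACGTG or GCGTG, the core letters of hypoxia response elements on either strand, were in 26 of 38, against 43.8%, but in 0 of the windows of Mki67, Top2a and Mcm5 and once in that of Cdk1, where they are not in capitals. A match of letters is a description and not a binding site, and no match says only that these letters are not in the window.

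Replication and mitotic genes also varied with the array number. For 13 of the 28 tested members array 03 was the highest in both genotypes, where this held for 19.7% of all genes. They were 5 of 8 replication genes (Mcm2, Mcm4, Mcm5, Mcm6, Rrm2), 6 of 8 mitotic genes (Mki67, Top2a, Ccna2, Cdk1, Cdc20, Foxm1), Ccnd1 and Cdk6. The count rests on the brightest probe set of each gene, and other probe sets did not all share the pattern. The other probe set of Mcm4 was lowest on number 03 in both genotypes, and another of Ccnd1 was lowest there in knockouts. A second probe set of Top2a did not have number 03 highest in knockouts, one of Mcm2 did not in controls and one of Cdk6 did in neither. Second probe sets of Mcm6, Cdc20 and Foxm1 kept number 03 highest in both genotypes. Number 03 was the youngest, at 18 weeks, but each number is 1 batch per genotype, so age, sex and batch cannot be told apart. Averaged over the 8 tested mitotic members, the deviation from each gene's mean over the 6 arrays was -0.37, 0.05 and 0.75 log2 units on knockouts 01 to 03, against -0.30, -0.53 and 0.39 on controls 01 to 03. For the 8 replication genes it was -0.12, -0.07 and 0.83 on the knockouts, against -0.37, -0.36 and 0.08 on the controls. Knockout 03 was the highest of the 6 arrays for 7 of 8 replication genes and 3 of 8 mitotic genes, where 18.8% of all genes had their highest signal there.

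Markers of the islet's cell types differed between arrays as well, some by array number and some not. Of the 7 tested acinar markers, which stand for exocrine tissue, 0 had a positive log2 difference. The mean deviation of these 7 was 0.95, 1.38 and -3.61 log2 units on knockouts 01 to 03, against 0.95, 1.29 and -0.97 on controls 01 to 03, so knockout 03 carries the lower log2 mean. Over the 8 measured acinar markers, the summed signal ranged from 5673 to 287108 in knockouts and from 46736 to 231362 in controls, lowest on number 03 in each genotype. Of the fibroblast and stellate markers 9 of 9 tested had a positive difference, with sums from 6104 to 22283 in knockouts and from 4421 to 7517 in controls, highest on knockout 03, while control 03 was at 4564. Endothelial markers had a positive difference in 9 of 9, with sums from 11057 to 14890 in knockouts and from 8669 to 9597 in controls. The sum was highest on knockout 01, where Kdr alone gave 7130. By the mean deviation of the 9, knockout 03 was the highest, at 0.67 log2 units against 0.09 on knockout 01, and control 03 was at -0.23. Tie1 was dim on every array. Leukocyte markers were positive in 5 of 6, with sums from 3853 to 6777 in knockouts and from 3503 to 6509 in controls, number 03 being the highest in both, while Cd3e and Itgam were dim on every array. Beta-cell markers were positive in 3 of 8, with sums from 88939 to 161644 in knockouts and from 110377 to 156039 in controls, lowest on number 03 in each genotype. Duct markers were positive in 4 of 7 and neural and Schwann markers in 7 of 8, with sums of 16471 to 33228 and 9057 to 10562 in knockouts, against 15830 to 29424 and 6703 to 7235 in controls. Other endocrine markers were positive in 7 of 7, with sums from 108566 to 141224 in knockouts and from 105520 to 118793 in controls. Of these marker genes 0 passed limma's adjusted threshold, and their part in the cell cycle values was not tested. The ratio of 3′ to 5′ signal of the actin control was 11.3, 3.43 and 7.97 on the knockouts, against 3.83, 3.34 and 15.1 on the controls. That of the Gapdh control was 11.9, 6.12 and 4.64 on the knockouts, against 5.71, 4.78 and 5.74 on the controls. Knockout 01 was high on both and control 03 on actin alone, and the part of these ratios in the cell cycle values was not tested.

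**Figure D4:**
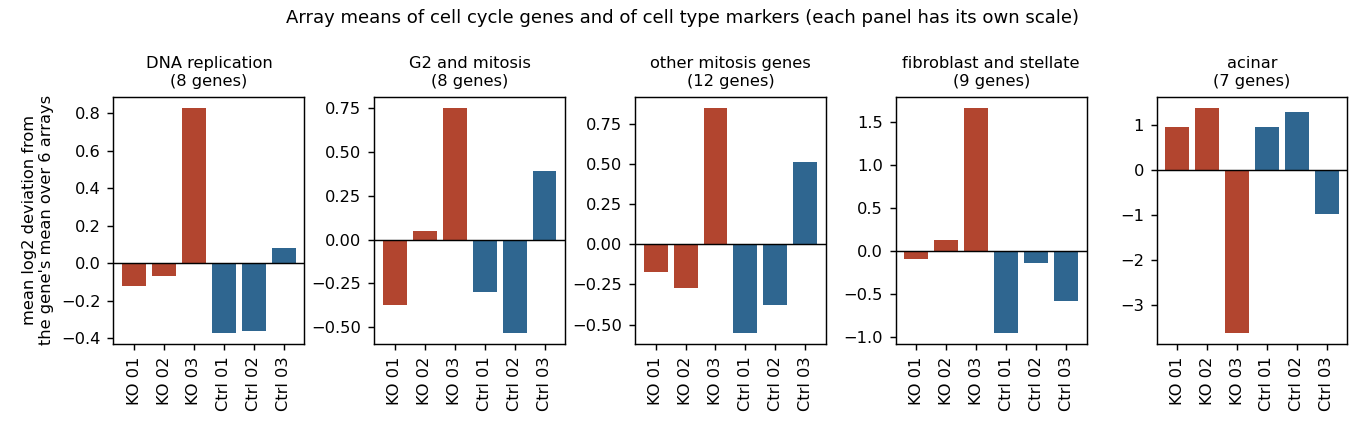
Mean log2 deviation from each gene's mean over the 6 arrays (y axis, own scale per panel) on knockout (KO, red) and control (Ctrl, blue) arrays, for tested replication members, tested mitotic members, further mitosis genes, fibroblast and stellate markers and acinar markers; a bar is 1 array. The mitotic panels are highest at number 03 of both genotypes, while the acinar panel is lowest there, at -3.61 on knockout 03 and -0.97 on control 03.

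Further genes of the same pathways were read from lists fixed by role. Of 23 other replication genes 17 were tested, 0 passed the adjusted threshold in either direction and 0 had an unadjusted limma p under 0.05, with 12 positive differences and a median of 0.19. The 2 of lowest p were Fen1, a flap nuclease, and Lig1, a DNA ligase. Fen1 had signals of 3515, 1895 and 38140 in knockouts, against 17696, 13461 and 61834 in controls, on a probe set ending in _x_at. The signal of 61834 was the highest on control 03, and whether this probe set detects transcripts other than Fen1 was not tested. The difference of -1.95 (SE 1.00) on it ran from -3.25 without knockout 03 to -1.08 without knockout 02. In the other Fen1 probe set, whose signals lay between 169.7 and 461.8, the difference was -0.39. Lig1 had signals of 524.7, 329.2 and 338.1 in knockouts, against 356.4, 207.3 and 222.7 in controls, higher in 3 of 3 pairs, by 0.61 (SE 0.35), or by 0.39 without knockout 01.

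Of 33 other mitosis genes 12 were tested, and again 0 passed in either direction and 0 had an unadjusted p under 0.05. Their differences were positive in 10 of 12, with a median of 0.45, and 7 of the 12 were higher in the knockout in 3 of 3 pairs, as were 9 of the 28 members and 13.8% of all genes. Ncaph, a condensin subunit, had signals of 199.7, 134.6 and 202.3 in knockouts, against 34.1, 86.8 and 144.0 in controls, a difference of 1.22 (SE 0.60) in a probe set of the _x_at type. It was 0.65 without control 01, and its dimmer probe set differed by -1.49. Pttg1, which encodes securin, had signals of 7399, 2581 and 4343 in knockouts, against 3125, 1734 and 2926 in controls, a difference of 0.80 (SE 0.41), which was 0.41 without knockout 01 and 0.53 without control 02. A dimmer probe set, also above the medians on every array, differed by -0.34, so the signals do not give the gene 1 direction.

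Of 26 other G1 regulators 22 were tested, with 0 passing and 0 at an unadjusted p under 0.05, 11 positive and 11 negative differences and a median of -0.02. E2f3, an E2F activator, had signals of 297.9, 189.4 and 238.4 in knockouts, against 210.7, 84.4 and 133.1 in controls, higher in 3 of 3 pairs, by 0.84 (SE 0.44), or by 0.51 without control 02. Rbl2, a relative of the retinoblastoma protein that acts in resting cells, had signals of 288.2, 472.6 and 375.3 in knockouts, against 538.5, 595.8 and 464.3 in controls. It was lower in 3 of 3 pairs, with a log2 difference of -0.51 (SE 0.30), or -0.33 without knockout 01, and its dimmer probe set stood at -0.10. With the block, 3 genes of these lists had an unadjusted p under 0.05: Fen1 (adjusted p 0.375) and Tpx2 (-1.73, adjusted p 0.795), a spindle assembly factor, on the lower side, and Pttg1 (adjusted p 0.857) on the higher. The Fen1 value is that of its _x_at probe set, with the limit given above. Tpx2 is named only for its p in the fit with the block. Its signals, its other probe sets and its dependence on single arrays are not given here.

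Several probe sets of a gene often disagreed. Of the 17 members with more than 1 probe set above the median on at least 3 arrays, 10 had differences of a single sign and 7 did not, namely Ccnd1, Cdc20, Cdk6, Cdkn1b, Foxm1, Mcm7 and Rrm1. Of the tested members 4 were read on a probe set ending in _x_at, Ccne1, Mcm4, Mcm5 and Rrm2. Without such probe sets, 26 members were tested, 16 had a positive difference and the median was 0.10, with 0 past the threshold. Mcm5 and Rrm2 were not tested in that setting, as their other probe sets were too dim.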

How the data were processed

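RNA of islets was measured on 1 Affymetrix mouse array per sample, 3 Vhlh knockout and 3 control. The deposited values are linear signal intensities, 1 per probe set, which the authors computed in GCOS 1.4 with MAS5, per the submitters' processing notes. Settings were not given in the sources used here. Checked on the deposited intensities, the 2% trimmed mean was 500.003 on every array. No detection call or scanner file was used, and precision rests on having 6 arrays.

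Of 45101 probe sets, the 64 control sets were dropped. The platform annotation gave 34945 of the others 1 symbol, and 34741 of these were found by Entrez identifier among RefSeq genes (GRCm38.p6), with 0 symbols changed. Each of the 18193 genes was represented by its one-symbol probe set of highest mean log2 signal, including those ending in _x_at, which can bind related transcripts. A gene was tested if its signal exceeded the array median on at least 3 of the 6 arrays. Log2 signals, with nothing added, were fitted in R 4.3.3 with limma 3.58.1 (lmFit, eBayes with an intensity trend; statmod 1.5.0) without a replicate block, with Benjamini-Hochberg adjustment over the 11693 genes tested. The fit was tested on simulated data. All 40 members were named, as were Vhl and the 2 genes of lowest p of each further cell cycle list. Tpx2 was added for its unadjusted p with the block. The members, lists and alternatives were chosen with earlier results of these data known.

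Both genotypes carry the numbers 01 to 03, and each number has 1 age and 1 recorded sex. Over the genes tested, deviations from group means correlated at 0.139, 0.415 and 0.423 in the pairs 01, 02 and 03. Each was above the minimum of 0.1 taken for pairing. Knockout 02 with control 01 also reached 0.141, so this check does not set pair 01 apart from a mismatched pair. Promoter windows are those of RefSeq, build GRCm38.p6.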

Additional observations from a re-analysis of the deposited data

How the results depend on the processing

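Under each of the 16 alternatives the count of members past limma's adjusted threshold was 0, and the members' median log2 difference lay between 0.06 and 0.32, against 0.17 as reported. Over all genes 2 passed as reported, 4 with every probe set on its own, 4 with a pseudocount of 50, 3 with array weights, 0 without both arrays numbered 03 (270 at an unadjusted p under 0.05) and 0 to 4 when each array was left out in turn, 0 without knockout 01, knockout 03 or control 01. The replicate block, which follows the pairing of the numbers, changed no call, with 0 members and 2 genes past the threshold. Members at an unadjusted p under 0.05 numbered 3 with the block, 2 with array weights (Mcm5 and Top2a), 2 without control 03 (Mcm5 and Top2a) and 1 with no filter (Uhrf1). Of 502 single-gene values under alternatives, 0 passed and 53 had the sign turned, in 19 of the 35 named genes that were tested. Tpx2 was not among the 35, and the cause of the turned signs was not tested. With array weights the turned differences were 0.30 for Ccna2, -0.16 for Ccnd3, 0.02 for Cdc20, 0.83 for Foxm1 and 0.09 for Pcna. Without both arrays numbered 03 they were 0.04 for Ccna2, 0.02 for Ccnd2, -0.35 for Ccnd3, -0.11 for Ezh2, 0.56 for Foxm1 and -0.06 for Rrm1. Averaging the probe sets of each gene gave -0.21 for Cdkn1b, 0.37 for E2f1 and -0.24 for Pttg1, and quantile normalization gave -0.03 for Ezh2. Other probe sets gave -0.15 for Ccnd1, 0.67 for Cdc20, -0.32 for Cdk6, -0.50 for Cdkn1b, 0.32 for Foxm1, -0.02 for Mcm7, -0.34 for Pttg1 and -0.04 for Rrm1. Leaving out each array in turn turned the sign of 15 genes, whose differences ran from -0.18 to 0.97 for Ccnd1, -0.25 to 0.18 for Ccnd2, -0.27 to 0.49 for Ccnd3, -0.60 to 0.01 for Cdk4, -0.13 to 0.40 for Cdkn1b, -0.04 to 0.14 for Cdkn2c, -0.16 to 0.06 for E2f1, -0.06 to 0.53 for Mcm2, -0.50 to 0.24 for Pcna, -0.29 to 0.24 for Ezh2, -0.68 to 0.29 for Ccna2, -0.34 to 0.04 for Cdc20, -0.80 to 0.39 for Aurka, -1.01 to 0.13 for Plk1 and -0.60 to 1.06 for Foxm1. Most mitotic genes lay near or below the array medians, and with 3 arrays per genotype most intervals without the block reach a 2-fold higher level.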
